A study of Drosophila melanogaster with 2 samples.

Results

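The genes of the cytoplasmic ribosomal proteins of Drosophila melanogaster were taken as all protein-coding genes of the Ensembl annotation whose symbol starts with RpL or RpS followed by a digit or P, together with sta, the gene of a small subunit protein with a name of its own. They numbered 93 of 13968 protein-coding genes, 54 of the large and 39 of the small subunit. The data were chromatin immunoprecipitation sequencing (ChIP-seq) peaks of the CG10321 protein, joined to the fluorescent tag eGFP, from whole embryos collected between 0 and 24 h of age. All embryos were of the strain labelled CG10321-GFP, which carries the tagged gene as an insertion. An antibody against GFP was used for the precipitation, on chromatin sonicated to 200 to 800 bp. There were 2 biological replicates of 1 group, with no second genotype, stage or treatment. Whole embryos of this age range mix all stages and cell types, and a peak therefore gives no cell type. The control experiment named as possible in the labels was not analysed here, read depth is unknown, and no test between groups could be made. The results are counts and values from the deposited peak lists, most of them set beside the same over all protein-coding genes.

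Ribosomal proteins fold onto the ribosomal RNAs to form the small subunit, which reads the messenger RNA, and the large subunit, which joins amino acids. Every growing cell needs them in matched amounts, and in Drosophila the loss of 1 copy of many of these genes gives the Minute phenotype of slow development and thin bristles. Their promoters in flies and vertebrates typically lack a TATA box and start transcription within a pyrimidine-rich initiator, the TCT element, which in flies works with the TBP-related factor Trf2. The DNA-binding proteins DREF, M1BP and Myc with Max are known to act at fly promoters of growth genes, the latter through E-boxes.

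A gene is called bound below when the summit of a peak lay within 500 bp of 1 of its annotated transcription start sites (TSSs). The sequences that the strongest peaks of the group covered are shown first, because the summits lay close to the start sites and the letters around them can be read together. The bound genes are RpL7 (chr2L:10200980-10201033, plus strand), RpS27 (chr3R:25247485-25247554, minus), RpL14 (chr3L:8600902-8601026, plus), RpL23A (chr3L:1668634-1668813, minus), RpS28b (chrX:9554517-9554643, plus) and RpL28 (chr3L:3222940-3223087, minus). Coordinates are those of dm6 and the letters are from the RefSeq copy of that assembly, each written 5′ to 3′ on the strand of the gene. The stretches start up to 159 bp before the TSS nearest to the summit and end 20 bp after it, or 29 bp after it for RpL7 and RpS27, and hold at most 30 annotated untranslated bases. Capitals mark matches to the DRE, the E-box, Ohler motif 1 or the TCT initiator, which are described with the consensus counts.
RpL7: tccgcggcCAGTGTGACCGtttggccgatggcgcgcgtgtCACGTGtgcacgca
RpS27: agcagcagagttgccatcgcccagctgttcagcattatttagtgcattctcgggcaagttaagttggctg
RpL14: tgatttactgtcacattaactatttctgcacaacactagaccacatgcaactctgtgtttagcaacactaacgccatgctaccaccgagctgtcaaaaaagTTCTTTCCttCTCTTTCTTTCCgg
RpL23A: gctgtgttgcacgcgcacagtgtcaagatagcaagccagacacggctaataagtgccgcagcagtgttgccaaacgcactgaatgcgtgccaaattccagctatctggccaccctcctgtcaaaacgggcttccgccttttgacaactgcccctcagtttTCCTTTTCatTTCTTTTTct
RpS28b: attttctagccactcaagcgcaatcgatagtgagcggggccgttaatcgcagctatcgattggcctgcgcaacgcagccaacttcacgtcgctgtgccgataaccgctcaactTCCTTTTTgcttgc
RpL28: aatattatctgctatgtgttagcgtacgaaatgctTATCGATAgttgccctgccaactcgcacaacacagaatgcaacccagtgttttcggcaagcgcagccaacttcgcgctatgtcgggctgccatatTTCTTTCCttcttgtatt

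For comparison, 3 ribosomal protein genes with no peak in the conservative list are shown from 100 bp before to 20 bp after the TSS. They are RpL10 (chr3L:23095451-23095571, minus), RpL10Aa (chr3R:15037266-15037386, plus) and RpL10Ab (chr3L:11822751-11822871, plus). RpL10 and RpL10Ab hold a TCT match, as RpL14, RpL23A, RpS28b and RpL28 do, whereas the stretches of RpL7 and RpS27 hold none. Both RpL7 and RpS27 are nevertheless counted below as having the TCT initiator, at a place outside the printed stretches. RpL10Ab also carries a DRE, and RpL10Aa has no match to any of these elements.
RpL10: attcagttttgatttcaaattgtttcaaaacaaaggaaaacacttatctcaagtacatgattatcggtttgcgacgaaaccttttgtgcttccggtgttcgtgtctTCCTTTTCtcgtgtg
RpL10Aa: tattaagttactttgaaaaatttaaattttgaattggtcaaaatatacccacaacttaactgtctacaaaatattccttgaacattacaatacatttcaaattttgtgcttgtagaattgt
RpL10Ab: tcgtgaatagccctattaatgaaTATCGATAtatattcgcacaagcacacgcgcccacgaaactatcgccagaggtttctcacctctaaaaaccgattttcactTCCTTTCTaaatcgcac

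In the conservative list, which drew on both replicates and held 3006 peaks on the main chromosome arms, 44 of the 93 ribosomal protein genes were bound. The share was 47.3% (Wilson 95% interval 37.5 to 57.4, which covers counting error over genes only), against 10.9% of all protein-coding genes. A further, longer thresholded list of both replicates held 52 of the genes, against 12.3% of all genes. Both subunits were represented at like shares, with 26 of 54 large subunit genes and 18 of 39 small subunit genes in the conservative list. The replicates differed in how many of these genes their own thresholded lists held. The list of replicate 1 held 47 genes (50.5%), against 7.9% of all genes, and that of replicate 2 held 19 (20.4%), against 8.16%. Between them, 17 ribosomal protein genes were in both replicate lists (18.3%), where 5.54% of all genes were, 30 were only in that of replicate 1 and 2 only in that of replicate 2. Small subunit genes were few in replicate 2, with 4 of 39 genes against 15 of 54 large subunit genes, whereas replicate 1 held 18 and 29.

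The peaks of these genes were of middling strength for the conservative list. Signal values are the strength assigned to a peak by the authors' caller. Their scale is not stated, and they are read within a list. Over the 44 bound genes the signal ran from 49.7 to 288 with a median of 106, and the median gene stood at percentile 53.9 of the conservative list. All bound protein-coding genes had a median of 112 and a median percentile of 56.7. Within the replicate lists the bound members stood lower, at median percentiles of 43.6 in replicate 1 and 35.6 in replicate 2. All bound protein-coding genes stood there at 50.6 and 56.2. Large subunit genes had a median of 119.5 and small subunit genes one of 97.3.

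RpL7, which encodes a large subunit protein, had the strongest peak of the group, at chr2L:10200914-10201100, with a signal of 288, 169.7 in replicate 1 and 116 in replicate 2. Its summit lay in the 5′ UTR, 26 bp downstream of a TSS. RpS27, the gene of a zinc-binding small subunit protein, followed at chr3R:25247437-25247588 with a signal of 255 (159.7 and 91.5 in replicates 1 and 2) and a summit 10 bp downstream of a TSS, also in the 5′ UTR. These were the only 2 of the 93 genes among the 1000 strongest peaks of the replicate 2 ranked list. That share, 2.15%, was below the 4.30% of all protein-coding genes. Among the 1000 strongest of replicate 1 were 17 of the 93 (18.3%), against 3.91% of all protein-coding genes.

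Among the other large subunit genes, RpL14 had a signal of 190.5 (128 and 65.7 in replicates 1 and 2) at 54 bp upstream of the TSS. RpL23A encodes a protein at the rim of the peptide exit tunnel, where targeting factors dock, and had 161 (90.2 and 78.2). At RpL28 the signal was 152 (97.9 and 50.6). RpL41, which encodes a very short basic peptide of the ribosome, had 146 (94.5 and 67.1), and its summit was shared with the divergent sodium channel gene NaCP60E. RpL24, the gene of a protein at the face towards the small subunit, had 138 (78.1 and 61.2). All of these were in the thresholded list of each replicate, and in each the replicate 1 value was the higher.

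RpL31, the gene of another protein at the tunnel exit, had a similar signal of 139, but its 2 replicates stood further apart (104 and 34.4), and it was in the thresholded list of replicate 1 alone. Of the small subunit genes, RpS28b had a signal of 154 (104 and 49.4) and was in both replicate lists. RpS21 had 143 (111 and 41.8) and was in that of replicate 1 alone. RpS28b encodes a protein near the exit path of the messenger RNA.

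The remaining genes in both replicate lists had signals between 96.9 and 137. They were RpL8, RpL13, RpL22, RpL30, RpL32, RpL34a, RpL34b, RpS12 and RpS25. At RpL22 the signal was 137 (88.4 and 49.8 in replicates 1 and 2), and at RpL13 it was 115 (64.0 and 50.8). RpL30 had 124 (70.1 and 63.1), and RpL8, whose protein lies beside the peptidyl transferase centre, had 115 (77.4 and 43.7). Among the 17 genes in both lists the replicate values were closest at RpS12, RpS25 and RpL34b. RpS12, which in Drosophila is needed for the elimination of Minute cells by their neighbours, had 109.7 (53.6 and 52.7). RpS25 had 96.9 (53.3 and 54.2). RpL32, long used as a reference gene for expression in flies, had 129 with the higher value in replicate 2 (54.6 and 75.2). RpL32, RpS25 and RpL11 were the bound genes whose replicate 2 value exceeded that of replicate 1.

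The genes held by the replicate 2 list and not by that of replicate 1 were RpL11 and RpL19. RpL11, whose protein joins the large subunit together with the 5S ribosomal RNA, had 82.5 in the conservative list and 37.1 and 57.3 in the ranked lists of replicates 1 and 2. RpL19 had 97.7, with 52.7 and 49.96. Its summit, 37 bp downstream of a TSS, was the only one of the 44 in a coding exon.

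**Figure D1:**
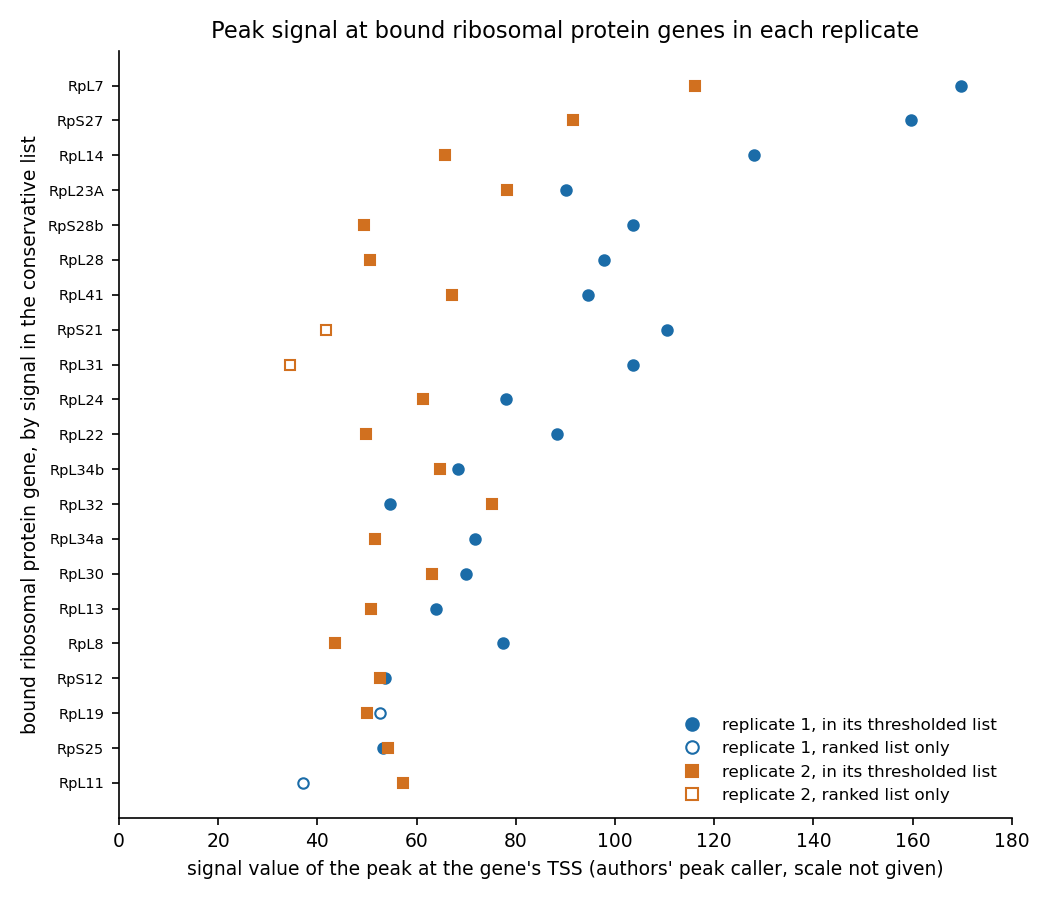
Signal value (x axis, scale of the authors' peak caller) of the strongest peak within 500 bp of a TSS of each of 21 bound ribosomal protein genes, those in the thresholded list of replicate 2 and the 10 of highest conservative signal (y axis), in the ranked list of replicate 1 (blue circles) and replicate 2 (orange squares), filled where the peak was in that replicate's thresholded list. The blue circle lies to the right of the orange square at each gene shown except RpL11, RpL32 and RpS25.

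A further 21 of the bound genes were in the thresholded list of replicate 1 and not in that of replicate 2. Of the large subunit these included RpL3, RpL4, RpL7A, RpL9, RpL17, RpL23, RpL27A, RpL31 and RpLP0, and of the small subunit RpS4, RpS14b, RpS15Aa, RpS16, RpS18, RpS19a, RpS20, RpS21, RpS29 and sta. RpL36A, RpS5a, RpS10b and RpS23 were in the conservative list but in neither replicate list. RpL36A had the lowest signal of the group, 49.7, with 31.6 and 27.7 in the ranked lists of replicates 1 and 2.

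Most genes held only by replicate 1 had a peak in replicate 2 as well, below its threshold. In all 30 ribosomal protein genes were held by the replicate 1 list alone, and 27 of them had a ranked peak of replicate 2 within 500 bp of a TSS. That ranked list is long, and 63.2% of all protein-coding genes had such a peak. The like share of other genes held by replicate 1 alone was not counted. The score of the members' 27 peaks, which is at least 830 in every thresholded list, ran from 25 to 800 in replicate 2 with a median of 140. Their median percentile in signal within the replicate 2 ranked list was 96.3, against 77.6 over all protein-coding genes with a peak. RpS29 was an example, with 82.6 in replicate 1 and 26.9 in replicate 2, where the score was 25.

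At most ribosomal protein genes the signal was higher in replicate 1 than in replicate 2, while over all genes the ratio was near 1. A summit in the ranked lists of both replicates, at most 200 bp apart, was found for 65 of the 93 genes, and replicate 1 had the higher signal at 58 of them (89.2%). The median ratio of replicate 1 to replicate 2 was 1.58. Over the 4644 protein-coding genes with such summits, replicate 1 was higher at 55.0% and the median ratio was 1.06. Among genes bound in the conservative list, replicate 1 was higher at 39 of 42 ribosomal protein genes (92.9%, median ratio 1.47) and at 46.7% of 1375 other genes (median ratio 0.970). The scale of the 2 lists was not given, so a ratio is read against that of all genes. With 1 library a replicate, a difference between these embryo collections and 1 between the libraries cannot be told apart.

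Lists of equal length gave the same order. Among the 2000 strongest peaks of each ranked list, replicate 1 held 51 ribosomal protein genes (54.8%), against 8.20% of all genes, and replicate 2 held 20 (21.5%), against 7.997%. Among the 5000 strongest, the counts were 66 and 42, with 16.7% and 14.8% of all genes. Across the 65 genes, Spearman's rho between the replicates' signals was 0.645, and across the 4644 genes it was 0.707. Among genes bound in the conservative list, rho was lower for the 42 ribosomal protein genes (0.431) than for the 1375 others (0.775). Genes of 1 library are not independent, and these values are descriptions.

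**Figure D2:**
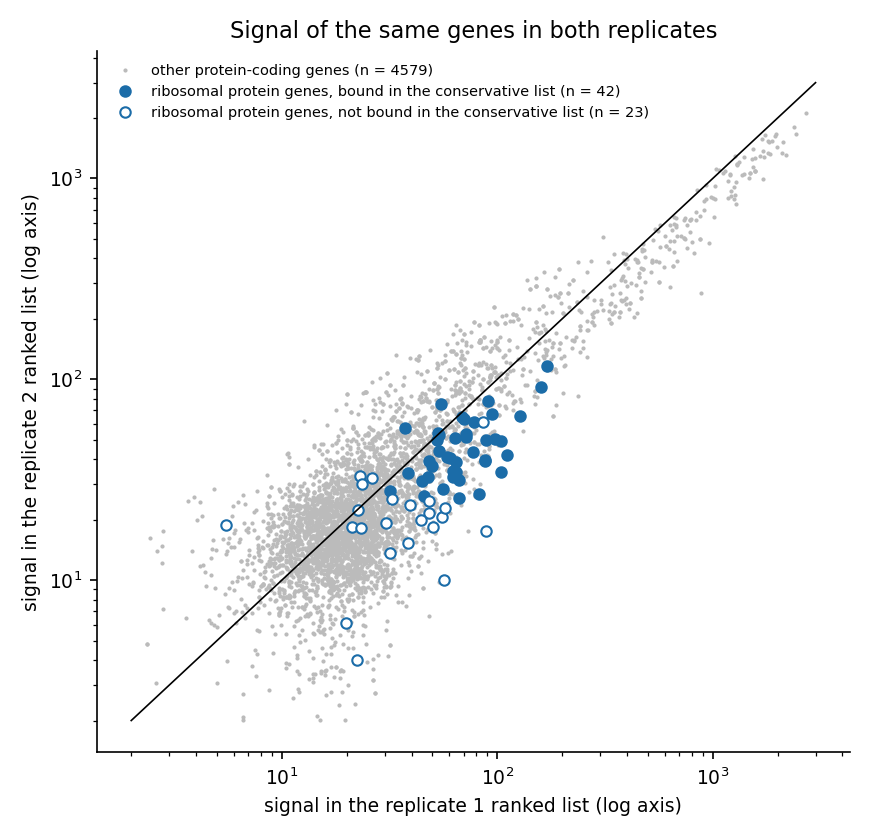
Signal in the ranked list of replicate 1 (x axis) and of replicate 2 (y axis), both on log axes, for the 4644 protein-coding genes whose summits in the 2 lists lay at most 200 bp apart; the line marks equal values. The 65 ribosomal protein genes (blue; filled where bound in the conservative list) lie mostly below the line, and the other genes (grey) on both sides of it.

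Summits at ribosomal protein genes sat close to the start site. Counted from the nearest own TSS, with negative values upstream, the median position was −27.5 bp (quartiles −56.75 and 3.25 bp). All bound protein-coding genes had a median of −116 bp (quartiles −192 and −23 bp). Within 50 bp of a TSS lay 28 of the 44 summits (63.6%), against 13.0% for all bound genes, and within 100 bp 39 of them (88.6%), against 31.9%. The medians were −24 and −45 bp in the thresholded lists of replicates 1 and 2, where all bound genes had −106 and −134 bp. Of the 44 summits, 31 lay upstream of the TSS (70.5%), 12 downstream and 1, at RpS5a, on it. Over all bound protein-coding genes the upstream share was higher, 78.4%. Relative to the gene, 26 were outside it, 17 in its 5′ UTR and 1 in a coding exon.

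The farthest summits were at RpS23, at −452 bp with a signal of 63.5, and at RpS20, at −221 bp with a signal of 82.3. That at RpS20 was the only one of the 44 nearer to the start of another protein-coding gene, CG17271, at 112 bp. Just outside the distance, RpS28a had its nearest conservative summit at 575 bp (signal 148) and RpS19b at −877 bp (signal 106). Most peaks had a fixed width and the summit in the middle, 41 of the 44 with 350 bp, so a position stands for the centre of the region the peak caller gave.

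**Figure D3:**
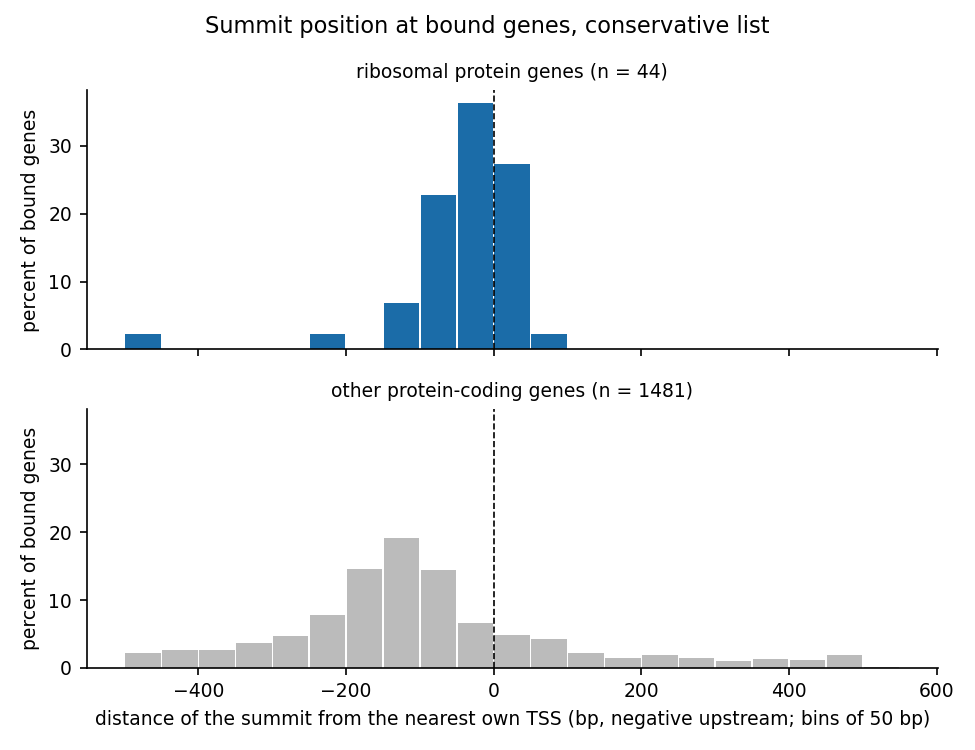
Share of bound genes (y axis, percent) by the distance of the strongest summit from the nearest own TSS (x axis, bp, bins of 50 bp, negative upstream, dashed line at the TSS), for 44 ribosomal protein genes (upper) and 1481 other protein-coding genes (lower). The upper histogram peaks in the bin just upstream of the TSS with 36.4% of the genes, and the lower 1 peaks between 150 and 100 bp upstream with 19.2%.

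The letters at the start sites were then compared. A TCT initiator was scored where CTTT with 2 pyrimidines on each side stood on the sense strand with its C within 10 bp of a TSS. It was found at 37 of 44 bound ribosomal protein genes (84.1%) and at 33 of 49 that were not bound (67.3%), against 1.74% of all protein-coding genes. With the C within 5 bp of a TSS, the count at bound genes was 23. Without replicate 1 the bound genes with the element numbered 15. Read the other way, 37 of 70 ribosomal protein genes with the element were bound (52.9%) and 7 of 23 without it (30.4%). Those 7 were RpL17, RpL34a, RpL41, RpS12, RpS20, RpS25 and sta. Among the unbound genes without it were RpL10Aa, RpL22-like, RpL24-like, RpLP0-like, RpS10a, RpS15Ab, RpS19b, RpS28a and RpS28-like, all in the paralogous sets described below. Of the 7 bound genes, RpL34a is in such a set. Shares over single-copy genes alone were not taken, so the difference in shares is not separated from that between copies. The TATA box, TATAAA on the sense strand between 16 and 40 bp upstream of a TSS, was found at 0 of the 44 bound genes, at 1 of the 49 others and at 9.39% of all protein-coding genes.

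GA-rich letters were at few of these summits. GAGAG, the core of the element that GAGA factor binds, searched as GAGAG or CTCTC within 50 bp of a summit, was at 2 of the 44 (4.55%), RpL4 and RpS5a. The count was 1 within 25 bp and 5 within 100 bp, and it was 1 in the list of replicate 1 and 0 in that of replicate 2. At other bound genes it was at 22.7% of 1481 summits, and in the same window around the TSS it was at 15.95% of all protein-coding genes. CTCTC is rich in pyrimidines and can overlap the TCT initiator. In the window around their TSSs, 8 of the 44 bound ribosomal protein genes held it (18.2%), against 27.4% of the other bound genes.

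Elements of factors known at growth gene promoters were searched on either strand within 50 bp of the summit, and each share is given against that of the other bound genes at their summits and of all protein-coding genes around the TSS. The DRE, TATCGATA, was at 8 of the 44 (18.2%), against 1.55% and 6.06%. These were RpL28, RpL34a, RpL36A, RpL41, RpS12, RpS15Aa, RpS25 and RpS29. The E-box CACGTG was at RpL7, RpL11 and RpL24 (6.82%, against 1.01% and 2.48%). Ohler motif 1, the site of M1BP, was at RpL7, RpL27A and RpLP0 (6.82%, against 0.540% and 3.72%), and the RpL7 summit held it together with the E-box in the stretch printed above. Ohler motif 7 was at RpL34a, RpS16, RpS19a and RpS29 (9.09%, against 3.38% and 6.40%).

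The same letters were also counted within 50 bp of the TSS in place of the summit. The DRE was there at 6 of 44 bound ribosomal protein genes (13.6%), at 9 of 49 unbound ones (18.4%) and at 6.48% of other bound genes. The E-box was at 15.9%, 12.2% and 3.51% of these groups, and Ohler motif 1 at 11.4%, 6.12% and 5.27%. Ohler motif 7 was at 9.09% and 6.12% of bound and unbound ribosomal protein genes and at 11.4% of other bound genes, the reverse of the order of the 2 bound groups at the summits. A match is a description of letters, not of a site in use, and summits near a TSS share its base composition.

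**Figure D4:**
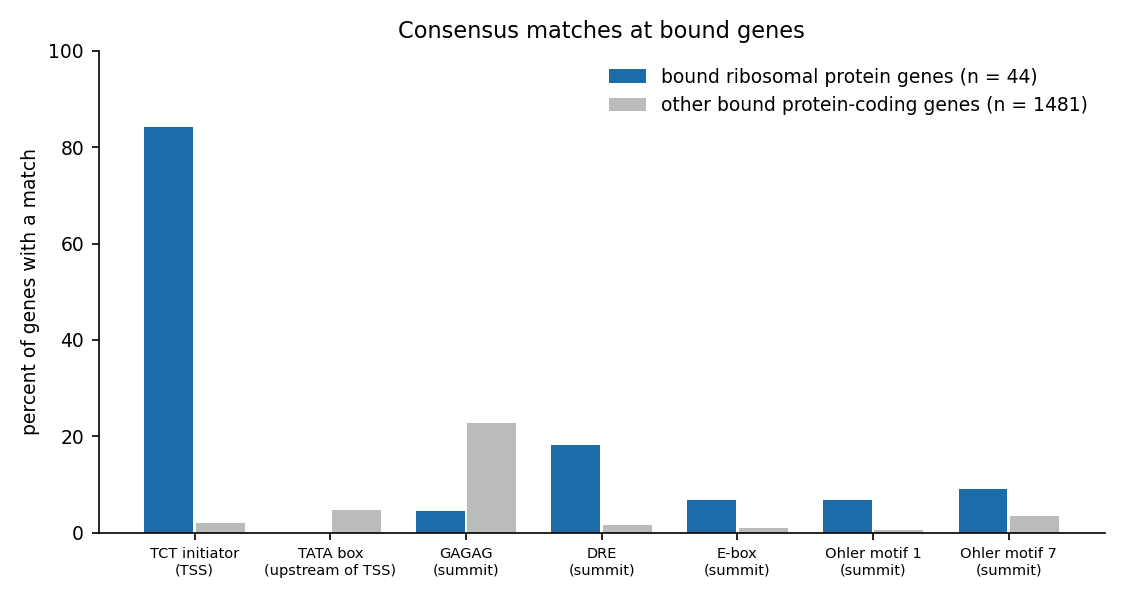
Percent of genes (y axis) with a match to each element (x axis) for 44 bound ribosomal protein genes (blue) and 1481 other bound protein-coding genes (grey), around the TSS for the TCT initiator and the TATA box and within 50 bp of the summit for the others. The TCT initiator, with its C within 10 bp of a TSS, stands at 84.1% against 1.96% and GAGAG at 4.55% against 22.7%.

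Several ribosomal proteins are encoded by more than 1 gene, and in most of these sets 1 copy was bound. Of 13 such sets with 27 genes, 10 had 1 bound copy, RpL34 had both and RpL10A and RpL37 had none. Of the 27 genes 12 were bound, against 32 of the 66 genes with no such copy. At RpL34a and RpL34b the signals were 124 (71.8 and 51.7 in replicates 1 and 2) and 137 (68.3 and 64.7), and both were in both replicate lists.

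In 3 sets the second gene encodes a relative that in yeast is a factor of ribosome assembly and not a ribosomal protein, and these relatives were not bound. RpL7-like had 19.8 and 6.14 in the ranked lists of replicates 1 and 2, against 169.7 and 116 at RpL7. RpL24-like had 5.53 and 18.7, against 78.1 and 61.2 at RpL24. At RpLP0-like the values were 31.3 and 16.7, where RpLP0, the base of the ribosomal stalk, had 48.2 and 39.1 and a conservative signal of 79.7.

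Copies known for expression in the germ line, RpL22-like, RpS5b and RpS19b, were not bound. RpL22-like had no peak near a TSS in the replicate 1 ranked list and 21.4 in that of replicate 2, against 88.4 and 49.8 at RpL22. RpS5b had 16.1 and 14.0, against 49.8 and 37.0 at RpS5a. RpS19b had 18.1 and 17.0, against 66.5 and 31.6 at RpS19a. For each of these 3 the copy used widely in the body was the bound one, with a conservative signal of 137 at RpL22, 79.8 at RpS5a and 89.0 at RpS19a.

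In the other sets, RpS10b was bound (66.9 in the conservative list, 47.8 and 32.5 in replicates 1 and 2), and RpS10a had 22.0 in replicate 1 only, with the summit at 500 bp. RpS15Aa was bound (113, with 64.1 and 38.9), and RpS15Ab was not (28.2 and 15.9). Of the neighbours RpS14a and RpS14b, RpS14b was bound (82.6, with 60.4 and 40.5), and RpS14a had 20.8 and 21.2. These neighbours are near-identical in coding sequence, and how reads that match both were placed was not examined. RpS28a had 23.5 and 29.98 and RpS28-like no peak near its TSS, beside the bound RpS28b.

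In the 2 unbound sets the copies differed. RpL10Ab and RpL37-1 both stood at percentile 97.3 of the replicate 1 ranked list, and at 60.4 and 91.0 of that of replicate 2. RpL10Aa had 16.1 in replicate 2 only, and RpL10Ab 39.6 and 13.5 in replicates 1 and 2. RpL37-1 had 39.5 and 23.6 and was in the longer thresholded list of both replicates, and RpL37-2 had 13.1 in replicate 1 only.

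**Figure D5:**
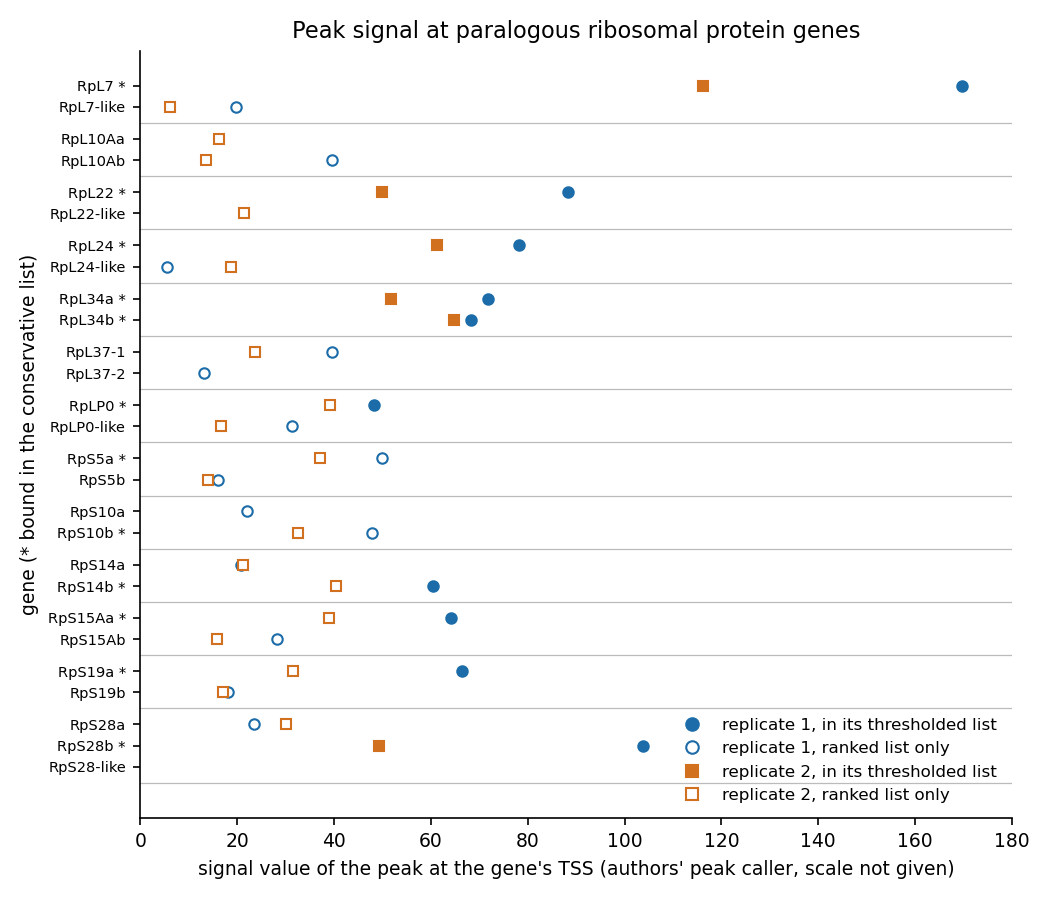
Signal value (x axis, scale of the authors' peak caller) of the strongest peak near a TSS in the ranked lists of replicate 1 (blue circles) and replicate 2 (orange squares) for the 27 genes of 13 paralogous sets (y axis, separated by lines), filled where the peak was in that replicate's thresholded list and with an asterisk where the gene was bound in the conservative list. In 10 sets 1 gene carries an asterisk, and at RpL34a and RpL34b both do.

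The 49 genes that were not bound in the conservative list fell into those held by another thresholded list and those held by none. The longer thresholded list held 10 of them, RpL10, RpL18, RpL27, RpL35A, RpL37-1, RpL37A, RpL39, RpS7, RpS27A and RpS28a, and replicate 1 alone held RpL36, RpLP1 and RpS2. The highest replicate 1 value among the 49, 88.8 at RpL37A, stood beside 17.5 in replicate 2. RpL10, whose protein completes the peptidyl transferase centre, had 42.1 in replicate 1 and no ranked peak near its TSS in replicate 2.

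RpL13A was a case apart. Its peaks 49 and 57 bp upstream of the TSS had signals of 85.9 and 61.4 in the ranked lists of replicates 1 and 2 and 154 in that of both replicates, each with the full score of 1000, yet none of the thresholded lists held it. It was 1 of 124 ranked peaks with a score of at least 830 that were absent from the conservative list, and the cause was not tested. With these peaks added, 45 of the 93 genes were bound.

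No thresholded list held the remaining genes. They numbered 36 with RpL13A. Of the large subunit they were RpL5, RpL6, RpL7-like, RpL10Aa, RpL10Ab, RpL12, RpL15, RpL21, RpL22-like, RpL24-like, RpL26, RpL29, RpL35, RpL37-2, RpL38, RpL40, RpLP0-like and RpLP2. Of the small subunit they included RpS3, RpS3A, RpS5b, RpS6, RpS9, RpS10a, RpS13, RpS14a, RpS15, RpS15Ab, RpS19b, RpS24, RpS26, RpS28-like and RpS30. RpS6, the substrate of S6 kinase, had 32.6 and 25.4 in replicates 1 and 2. RpL21, RpL38, RpS13 and RpS28-like had no peak within 500 bp of a TSS in any ranked list, and RpL6 had 1 only in the ranked list of both replicates, with a signal of 27.9.

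In the ranked lists, which hold peaks of any score, most of the group had a peak near a start site. The counts were 85 of 93 genes in the list of both replicates, 86 in replicate 1 and 79 in replicate 2, against 78.7%, 67.9% and 63.2% of all protein-coding genes. The median percentile of the signal within its own list was 98.1 in replicate 1 and 95.9 in replicate 2, against 79.5 and 77.6 over all genes with a peak. Among the 49 unbound members, 42 had a ranked peak in replicate 1, with a median percentile of 94.9, and 28 of these summits (66.7%) lay within 100 bp of a TSS. Of the other unbound protein-coding genes with a replicate 1 peak, the median percentile was 72.5 and 29.5% lay within 100 bp. In replicate 2, 36 of the 49 had a peak (median percentile 80.7, against 70.0) and 17 of these (47.2%, against 24.6%) lay within 100 bp.

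By place in the ribosome, in none of the regions listed were all genes bound. Around the peptidyl transferase centre, 2 of 3 genes were bound, RpL3 and RpL8, and all 3 were in the replicate 1 list. Of the wall of the peptide exit tunnel, RpL4 and RpL17 were bound and RpL39 was not. At its rim, RpL19, RpL23A and RpL31 were bound and RpL26 and RpL35 were not. Of the partners of the 5S RNA, RpL11 was bound and RpL5 was not (10.3 and 9.66 in replicates 1 and 2). The stalk proteins RpLP1 and RpLP2 and the stalk-base protein RpL12 were not bound, while RpLP0 was.

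On the small subunit, none of RpS2, RpS3 and RpS9, which line the entry of the messenger RNA, was bound in the conservative list. Near its exit RpS5a, RpS14b, RpS28b and sta were bound, and RpS14a and RpS26 were not. At the decoding centre RpS23 was bound and RpS15 and RpS30 were not. The ubiquitin fusion genes RpL40 and RpS27A were both unbound, RpS27A with 58.7 in replicate 1 and no ranked peak near its TSS in replicate 2.

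Of the 44 bound summits, 24 also lay within 500 bp of the TSS of another protein-coding gene. The like share over all bound genes was not counted. Members with a divergent protein-coding gene starting within 500 bp upstream were bound in 23 of 37 cases (62.2%), and those without in 21 of 56 (37.5%). Over all protein-coding genes with such a neighbour the share was 18.1%, and over all protein-coding genes it was 10.9%. A higher share with such a neighbour is therefore not particular to the members. At RpL13 the neighbour was Dref, the gene of the DRE-binding factor itself, whose TSS was 80 bp from the same summit. RpL7 shared its summit with Ripalpha, RpL14 with Nelf-E and RpL28 with eIF1, an initiation factor gene. A summit between divergent genes cannot be assigned to 1 of them from these lists.

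Members that host a small nucleolar or Cajal body RNA were bound in 19 of 29 cases (65.5%), and those that do not in 25 of 64 (39.1%), and 39 of all 84 protein-coding hosts were bound (46.4%). Members with more than 1 annotated TSS were bound in 28 of 45 cases (62.2%) and those with 1 TSS in 16 of 48 (33.3%), against 21.1% and 7.25% over all protein-coding genes. More start sites also give a summit more places to fall near 1. By chromosome, 10 of 15 members on X were bound, where 10.02% of all protein-coding genes were, and 8 of 14 on 3L (11.8%). The counts were 8 of 19 on 2L (11.1%), 9 of 21 on 2R (11.3%) and 9 of 23 on 3R (10.6%). On 4 the count was 0 of 1, RpS3A, where 4 of 80 protein-coding genes were bound.

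The groups most like these genes gave the following shares. Of the 73 mitochondrial ribosomal protein genes 10 were bound (13.7%, Wilson 95% interval 7.61 to 23.4), with summits a median of 130 bp upstream and 1 of the 10 within 50 bp of a TSS. Their replicate lists held 8 genes each, unlike the 47 and 19 of the cytoplasmic genes. Of 54 genes of translation initiation, elongation and release factors 15 were bound (27.8%, 17.6 to 40.9), with 14 in replicate 1 and 8 in replicate 2. The factor summits lay a median of 70 bp upstream, with 3 of the 15 within 50 bp of a TSS. Their median was −48 bp in the replicate 1 list, with 7 of 14 within 50 bp (50%, against 17.3% of all bound genes). It was −155 bp in that of replicate 2, with 1 of 8 within 50 bp (12.5%, against 9.21%). These intervals cover counting error over genes only. In the replicate 1 list the shares were 50.5% of the cytoplasmic, 11.0% of the mitochondrial and 25.9% of the factor genes. In that of replicate 2 they were closer, at 20.4%, 11.0% and 14.8%.

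Of 11 matched genes of growth control and ribosomal protein transcription, 5 were bound, where 10.9% of all protein-coding genes were. Xrp1, a transcription factor gene of the Minute response, had a signal of 729 (464 and 274 in replicates 1 and 2), and its partner Irbp18 had 78.7 (26.1 and 49.8). Dref had the shared peak of 115, Thor, the gene of the translation repressor 4E-BP, had 104 (74.3 and 48.1), and M1BP had 69.2 (24.99 and 52.6). Myc, Max, Mnt, Trf2, raptor and S6k were not bound.

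Of 28 genes listed by symbol for ribosome making, 8 were bound, against the same 10.9%. The list was not checked gene by gene for function, and Rrp1 may not belong to it. Nop56, a core protein of small nucleolar RNA particles, had 854 (562 and 304), and eIF6, which keeps free large subunits from joining, had 524 (249 and 277). Ns2 had 148, Rack1, the gene of a small subunit scaffold protein, 125, NHP2 93.2, Nopp140 86.4, Fib 84.3 and pes 71.8. Except for Xrp1, Nop56 and eIF6, these signals were within the range of the ribosomal protein genes.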

How the data were processed

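Peaks of CG10321-eGFP ChIP-seq in embryos were deposited as lists in dm6 for 2 biological replicates and for both together. Neither aligner nor caller is given in the sources used here. The score in column 5, as deposited, reaches 1000 and is taken for a scaled irreproducible discovery rate (IDR), the term in the deposited file lists. Its lowest value in the thresholded lists was 830. Column 7 holds the signal value of the authors' peak caller, and column 10 the deposited distance of the summit from the peak start, in bp. Most peaks have a fixed width (350 bp for 74.6% of the conservative list), with the summit in the middle. Per the deposited file lists, the thresholded lists also derive from a further shared file that the ranked lists do not name. In the series' ranked lists, 16 columns of single inputs were not used, and 1 ranked list was not used. No list holds read counts, so depth is unknown and the replicates' number limits precision.

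Summits on the main arms were assigned to genes within 500 bp of any TSS of Ensembl release 115, taking the strongest peak, with Python 3.11.15, numpy 2.4.6 and scipy 1.17.1. Assignment and the motif search were tested on simulated peaks and sequences. No test was run, since there is 1 group of 2 samples without counts. The members, gene lists, consensus sequences and the naming rule were chosen with earlier results of these data known, and the lists of places in the ribosome were written after the values were seen. Named with values were the genes in the conservative and both replicate lists, those in the replicate 2 list, the 10 strongest, those with a nearest summit 300 to 1000 bp from a TSS members of paralogous sets and a gene nearer to a summit than the member. Other genes with values were picked after these were seen. Of the pathway symbols, 2 found no match. Alternatives were the list, the TSS distance, the gene assignment, the signal threshold and the motif windows. Some members entered every count but are not reported here by name.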

Additional observations from a re-analysis of the deposited data

How the results depend on the processing

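The number of bound ribosomal protein genes stayed between 42 and 52 over the other thresholded list, TSS distances of 200 and 1000 bp, assignment to the nearest gene only, peaks covering a TSS and, chosen after seeing the data, the absent high-scoring peaks added. It was 19 to 47 when either replicate's own list was used alone, the lower value without replicate 1, and 24 among peaks with a signal at or above the list median. The median signal of 106 moved to 98.9 in the other thresholded list, to 134 among peaks at or above the list median, to 111 with a distance of 200 bp, of 1000 bp or with peaks covering a TSS, and to 57.3 to 64.1 with 1 replicate, whose lists have lower values. The upstream share of 70.5%, against 78.4% over all bound protein-coding genes, ran from 68.4% to 76.6% with 1 replicate left out. GAGAG windows, 2 in the report, numbered 0 to 1 with 1 replicate left out, 0 among peaks at or above the list median, 1 within 25 bp and 5 within 100 bp. Bound genes with a TCT initiator, 37 in the report, numbered 15 to 39 with 1 replicate left out, 20 among peaks at or above the list median and 23 when the C had to lie within 5 bp of a TSS. Genes in both replicate lists, 17 in the report, ran from 16 to 20 over the settings tried, with 19 among the 2000 strongest peaks of each ranked list, a setting chosen after seeing the data. No paired analysis was possible because there is 1 group. Depth is unknown, so a gene without a peak may be below detection, and 2 replicates give no estimate of spread for a gene.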

Other observations

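The TCT initiator also stands at 173 protein-coding genes outside the ribosomal protein group, and 29 of them were bound (16.8%), against 10.6% of the 13725 genes without it. Both the element and the peak were scored at any TSS of a gene, so genes with more start sites had more places for each. Among those 29 were genes of the translation machinery with signals in the range of the ribosomal protein genes. The elongation factor gene eEF2 had a summit 11 bp downstream of a TSS with a signal of 133 (83.8 and 42.2 in replicates 1 and 2). At eEF1alpha1, which brings transfer RNAs to the ribosome, the summit lay 50 bp upstream with 112 (83.6 and 39.97). Rack1 had one 10 bp upstream with 125, where replicate 2 had the higher value (53.5 and 65.8). The poly(A)-binding protein gene pAbp had 103 (51.6 and 16.1), with the summit 477 bp downstream of a TSS. Others with the same letters at the TSS had far stronger peaks, among them bic with 2006 and ASPP with 1801. These genes were named after their values had been seen.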
